A study of Mus musculus with 12 samples.

Results

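Neurod1, Neurod2, Neurod4, Nhlh1, Nhlh2, Insm1, Myt1 and St18 are transcription factor genes of neurons and endocrine cells. They were chosen by name as 8 rows of a deposited table of 27129 genes, and each name matched 1 row. Their RNA levels come from sequenced pituitaries of mice at postnatal day 0, freed of the posterior lobe, in 12 libraries of individual samples. All 12 glands carried a Cre recombinase transgene that is active in pituitary progenitors. The 6 control glands were Isl1+/fx, in which 1 allele of Isl1 was floxed and 1 was intact. The 6 glands labelled mutant were Isl1fx/-, with 1 floxed and 1 null allele. The comparison asks how these genes differ between the groups after deletion of Isl1, a LIM-homeodomain factor of pituitary progenitors, thyrotropes and gonadotropes. Libraries held 45415453 to 61533576 fragments, and levels are given as CPM, fragments of a gene scaled to library size with TMM factors. Values per group are mean ± SD with n = 6.

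Basic helix-loop-helix (bHLH) factors of the NEUROD and NHLH families bind DNA as dimers with widely expressed E proteins such as TCF3, at E-boxes, sites with the letters CANNTG. ID proteins capture the E proteins and so block them, and HES factors downstream of NOTCH repress the genes that start neural and endocrine differentiation. INSM1, MYT1 and ST18 are zinc finger factors that act beside the bHLH factors in differentiating neurons and endocrine cells, in part as repressors. In the pituitary, NEUROD1 is known as an activator of Pomc, the corticotrope hormone precursor gene, together with TBX19, and INSM1 is known to be needed for endocrine cell differentiation.

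The promoter sequences of 3 bHLH genes are shown because Neurod1 was the gene among the 8 that passed the test, Neurod4 is its relative with the highest level per length here, and the Nhlh1 window held the E-box letters CAGATG, the form that NEUROD factors bind. Each runs 5′ to 3′ on the coding strand from 250 bases before the RefSeq transcript start to 50 after it (build GRCm38.p6), and capitals mark every E-box (CANNTG, which reads the same on both strands). The windows were chr2:79456587-79456886 for Neurod1, chr10:130280089-130280388 for the downstream start of Neurod4 and chr1:172057547-172057846 for Nhlh1, all on the minus strand.
Neurod1: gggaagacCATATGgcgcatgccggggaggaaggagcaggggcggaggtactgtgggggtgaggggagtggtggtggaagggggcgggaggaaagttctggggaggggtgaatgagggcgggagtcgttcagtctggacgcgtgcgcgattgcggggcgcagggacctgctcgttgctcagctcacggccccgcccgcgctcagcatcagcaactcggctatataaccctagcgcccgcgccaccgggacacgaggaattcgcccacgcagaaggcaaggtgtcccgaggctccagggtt
Neurod4: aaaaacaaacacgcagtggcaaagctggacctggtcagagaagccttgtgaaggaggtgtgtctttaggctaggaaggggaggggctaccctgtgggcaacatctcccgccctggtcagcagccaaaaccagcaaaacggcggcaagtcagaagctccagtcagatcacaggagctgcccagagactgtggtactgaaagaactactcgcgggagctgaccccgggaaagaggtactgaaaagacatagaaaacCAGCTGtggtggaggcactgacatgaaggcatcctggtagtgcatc
Nhlh1: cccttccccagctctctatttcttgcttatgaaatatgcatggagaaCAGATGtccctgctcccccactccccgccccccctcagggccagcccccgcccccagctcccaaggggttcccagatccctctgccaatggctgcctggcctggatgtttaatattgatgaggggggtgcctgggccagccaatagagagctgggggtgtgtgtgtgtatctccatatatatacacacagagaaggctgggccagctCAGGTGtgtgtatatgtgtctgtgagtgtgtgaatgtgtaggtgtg
The window of Neurod1 held 1 E-box, CATATG, and no CAGATG on either strand. The Neurod4 window held 1 E-box, CAGCTG, and the window of its upstream start held 0. In the window of Nhlh1 there were 2, CAGATG and CAGGTG. Windows of Neurod2 and Nhlh2 held 3 and 4 E-boxes, each with 1 CAGATG, and the 3 windows of Myt1 held 0, 2 and 1. For Insm1 and St18 no window was matched, so that 6 of the 8 genes had 9 windows. Among 32851 windows of the same length, 72.3% held an E-box and 17.2% held CAGATG, so both are common among promoters. The letters AAGTT, the core bound by MYT1-type fingers (both strands), were in 39.3% of all windows, and once in that of Neurod1. The homeodomain core TAAT (both strands) was in 58% of all windows and absent from that of Neurod1. Such matches describe letters and do not show binding.

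The targeted gene, Isl1, did not act as a check of the labels. It lay at 31.8 to 40.8 CPM in controls (median 34.7) and 53.4 to 68.2 CPM in the libraries labelled mutant (median 58.6), a log2 fold change of 0.74. All exons are pooled in these values and transcription of the floxed part was not tested, and directions are stated for the libraries as labelled, mutant over control. Among markers of other cells, all 5 tested genes of multiciliated and stratified epithelium rose, against 4.3% of all genes tested. Summed, these 5 reached 20.2 to 24.6 CPM in controls, against 65.5 to 148.4 CPM in libraries labelled mutant. In bulk tissue, fewer cells of a type and less RNA per cell cannot be told apart.

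Of the 8 genes, Neurod1 fell in the libraries labelled mutant and none rose. The other 4 genes abundant enough to be tested, Neurod4, Insm1, Myt1 and St18, had fold changes below 0 that did not pass the test. Nhlh1, Nhlh2 and Neurod2 were under the level filter (an FPKM of 1 or more in 6 or more libraries, where FPKM is the level per transcript length). Thus 1 of 5 tested genes was called lower at an edgeR adjusted p under 0.05, against 2.75% of all 15246 genes tested, and 0 were called higher, against 4.3%. A log2 fold change below 0 was found for 5 of 5, against 51.4% of all genes. Their median was -0.16, and that of all genes was -0.0036. An unadjusted edgeR p under 0.05 was found for 4 of the 5, against 11.3% of all genes in this direction.

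Neurod1 (chr2:79452521-79456751, minus strand, mm10, protein coding) was measured at 10.5, 10.9, 9.73, 9.06, 10.4 and 10.4 CPM in controls 0 to 5. In the libraries labelled mutant 0 to 5 it was at 8.35, 6.90, 6.88, 7.52, 7.71 and 4.96 CPM. All 6 libraries labelled mutant lay below the lowest control, and mutant 5 lay apart below the rest. The mean fell by 30.6%, from 10.2 ± 0.662 to 7.05 ± 1.16 CPM. edgeR gave a log2 fold change of -0.53 (95% interval -0.75 to -0.31) with a standard error of 0.103 and an adjusted p of 0.00666. An exact two-sided permutation test of the CPM returned p = 0.00216, which is the lowest p that 6 against 6 libraries allow. Groups without overlap in this direction were found for 1 of the 5 genes and for 1.37% of all genes tested, and in the other direction for 0 of the 5 and 2.91% of all genes. Of the 419 genes called lower, 55 had a log2 fold change at or below that of Neurod1, which is itself one of them.

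**Figure D1:**
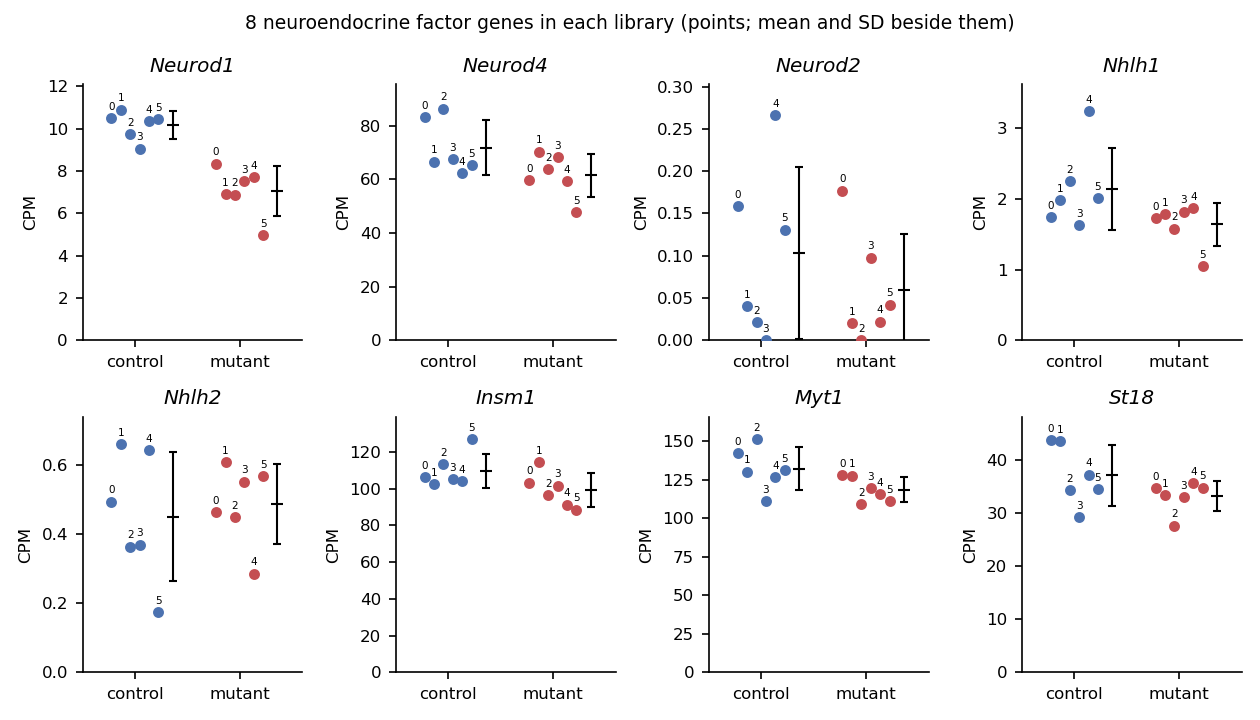
CPM of the 8 genes in each library (numbered points, 6 per group), with the mean and SD beside each group; the lower SD arms of Neurod2 end at the axis. Only for Neurod1 are all libraries labelled mutant (highest 8.35 CPM) below all controls (lowest 9.06 CPM).

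Between 236 and 544 fragments were counted for Neurod1 in a library, which gives a counting error of 4.29% to 6.51%. On the FPKM scale the groups of Neurod1 overlapped, because mutant 0 had 4.09 FPKM, while control 3 had 3.79 and control 2 had 4.06. The FPKM of control 0 and mutant 0 stand in another relation to their counts than those of the other libraries. The other 5 libraries labelled mutant, at 2.09 to 3.22 FPKM, lay below every control.

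A long noncoding RNA on the opposite strand, Gm26755 (chr2:79453985-79461107, plus strand), crosses Neurod1. The deposited table gives the same interval for both, and the library kit keeps no strand, so that reads of the shared bases cannot be assigned to 1 of the genes by strand. In the annotation they share 154 of the 2729 exonic bases of Neurod1. Gm26755 averaged 11.0 ± 0.856 CPM in controls, and 8.43 ± 1.65 CPM with the mutant label. The groups overlapped, and its log2 fold change of -0.39 had an edgeR adjusted p of 0.0607. On the same strand as Neurod1, Cerkl (chr2:79330543-79456785, minus strand), a ceramide kinase-like gene, spans all of Neurod1 in the annotation and shares 201 of its exonic bases. The deposited table gives Cerkl an interval that ends before Neurod1. Cerkl had 6.37 ± 0.775 and 5.87 ± 0.913 CPM, and its log2 fold change was -0.12 (edgeR adjusted p = 0.584). How far reads of either gene enter the value of Neurod1 was not tested.

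Neurod4 (chr10:130268152-130280240, minus strand), which acts with other bHLH factors in neurons and in maturing somatotropes, was more abundant per length. Its controls ran from 62.2 CPM to 86.3 CPM with a median of 67.1, and the libraries labelled mutant from 47.7 to 70.3 CPM with a median of 61.7. Controls 0 and 2 lay above all other libraries and mutant 5 lay below them, while the rest intermixed. The means were 71.8 ± 10.2 and 61.5 ± 8.10 CPM. The log2 fold change was -0.22 (95% interval -0.44 to -0.0060) with an edgeR adjusted p of 0.21, and the exact two-sided permutation p was 0.0931. In the authors' deposited table, Neurod4 had a log2 fold change of -0.22 and a q-value of 0.0308, while Neurod1 had -0.52 and 0.00831. A q-value of at most 0.05 with a lower level was thus given for 2 of the 6 genes tested there, against 2.52% of all 18309 genes tested. None of the 8 genes was marked by the authors, whose rule also asks for a fold of at least 1.5.

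Neurod2, a factor of differentiating cortical neurons, was near the limit of detection. It had 0 to 12 fragments in a library, with control 3 and mutant 2 at 0 and 7 libraries under 3 fragments. A count of 3 corresponds to 0.0487 to 0.0666 CPM, depending on the library, and covers counting error only. The means were 0.103 ± 0.102 and 0.0598 ± 0.0663 CPM, and a difference was not detectable at this depth (exact two-sided permutation p = 0.422).

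Nhlh1 and Nhlh2 encode bHLH factors of newly formed neurons, and Nhlh2 is also known in hypothalamic neurons that control body weight and fertility. Nhlh1 lay between 1.63 and 3.24 CPM in controls with a median of 1.995. In the libraries labelled mutant it lay between 1.05 and 1.87 CPM with a median of 1.75. Controls 1, 2, 4 and 5 lay above all libraries labelled mutant, and controls 0 and 3 lay among them. The means were 2.14 ± 0.582 and 1.64 ± 0.305 CPM (exact two-sided permutation p = 0.0563), and the difference of -0.50 CPM was -0.28 CPM without control 4. Controls 0 and 3 were the lowest controls, so leaving out either one widens the difference. The exact permutation p was 0.0303 without control 0 and 0.0130 without control 3. It was 0.126 without control 4 and 0.147 without mutant 5. Without the level filter, edgeR gave Nhlh1 a log2 fold change of -0.39 (95% interval -0.77 to -0.0098; adjusted p = 0.247). Nhlh2 averaged 0.451 ± 0.186 CPM in controls, against 0.488 ± 0.116 CPM in the other group, from 8 to 34 fragments a library. The groups overlapped throughout (exact two-sided permutation p = 0.684).

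Insm1 (chr2:146221921-146225020, plus strand) encodes a zinc finger repressor that recruits the histone demethylase KDM1A. It lay between 102.5 and 126.9 CPM in controls with a median of 105.8, and between 88.5 and 114.4 CPM in the libraries labelled mutant with a median of 99.2. Control 5 stood above the rest, while 4 of the libraries labelled mutant lay below every control. The means were 109.7 ± 9.23 and 99.3 ± 9.34 CPM. The log2 fold change was -0.14 (95% interval -0.29 to -0.0019), with an edgeR adjusted p of 0.217 and an exact two-sided permutation p of 0.0758.

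Myt1 (chr2:181763332-181827797, plus strand) and St18 (chr1:6487231-6860940, plus strand) encode factors of 1 family, whose fingers bind the AAGTT core. Myt1 spanned 110.9 to 151.4 CPM in controls (median 130.7) and 108.9 to 127.9 CPM in the libraries labelled mutant (median 117.5). St18 spanned 29.3 to 43.8 CPM (median 35.9) and 27.7 to 35.7 CPM (median 34.1). For both genes the lowest control, control 3, lay inside the range of the other group, and the highest values were those of controls. The log2 fold change of Myt1 was -0.16 (95% interval -0.30 to -0.01), with an edgeR adjusted p of 0.181 and an exact two-sided permutation p of 0.0671. That of St18 was -0.16 (95% interval -0.37 to 0.04), with an edgeR adjusted p of 0.339 and an exact two-sided permutation p of 0.173.

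**Figure D2:**
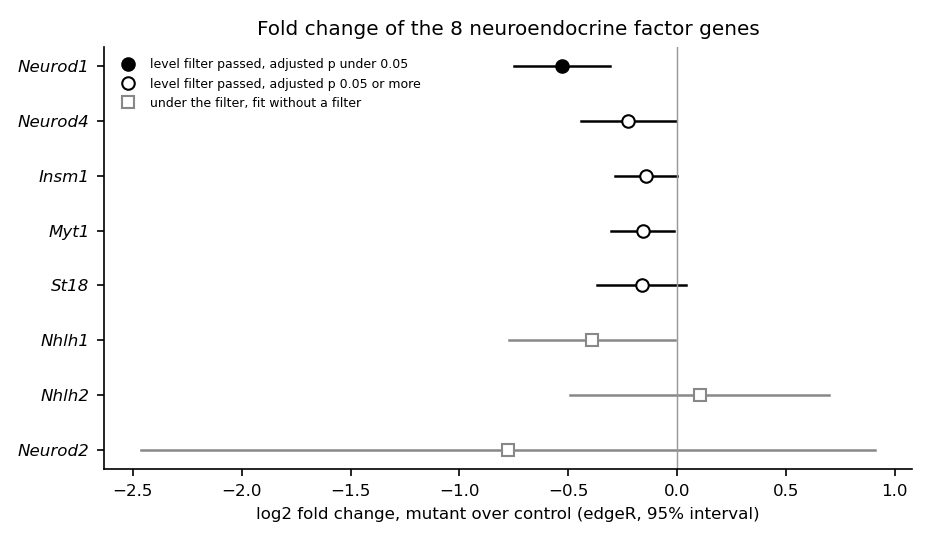
Fold change of each gene (log2, libraries labelled mutant over control) with its 95% interval from edgeR; squares are genes under the level filter, fitted without it. Neurod1 is the filled point at -0.53, and the interval of Neurod2 is the widest, from -2.46 to 0.91.

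Transcript variants were separate in the authors' deposited table for Myt1 and St18 alone among the 8 genes. Myt1 had 4, of which the main one held 72.8% of the gene's FPKM in controls and 74.9% in the mutant group, and the next 21.3% and 17.6%. St18 had 5, with 77.7% and 76.1% in the main one. No variant of the 8 genes was marked as changed, although the single variants of Neurod1 and Neurod4 had q-values of 0.0117 and 0.0436. Variant values have no replicates here.

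Per length, the order of the 8 genes was the same in both groups. Mean FPKM was highest for Insm1, at 39.2 ± 4.88 in controls and 35.2 ± 5.10 in the libraries labelled mutant. Myt1 followed with 24.3 ± 2.32 and 21.8 ± 1.27 FPKM, and Neurod4 with 22.6 ± 4.16 and 19.4 ± 2.78 FPKM. Ranges of Myt1 and Neurod4 overlapped in both groups, although Myt1 was above Neurod4 in 5 of 6 controls and in 6 of 6 libraries labelled mutant, and this difference was not tested. St18 came next at 6.42 ± 0.960 and 5.76 ± 0.504 FPKM, then Neurod1 at 4.37 ± 0.432 and 3.05 ± 0.648 FPKM. Nhlh1 stood at 0.912 ± 0.237 and 0.697 ± 0.132 FPKM. Nhlh2 and Neurod2 were lowest, with 0.140 ± 0.0581 and 0.0343 ± 0.0338 FPKM in controls, where their ranges overlapped. In the libraries labelled mutant they had 0.152 ± 0.0357 and 0.0200 ± 0.0227 FPKM, without overlap. The remaining neighbours were apart in both groups.

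**Figure D3:**
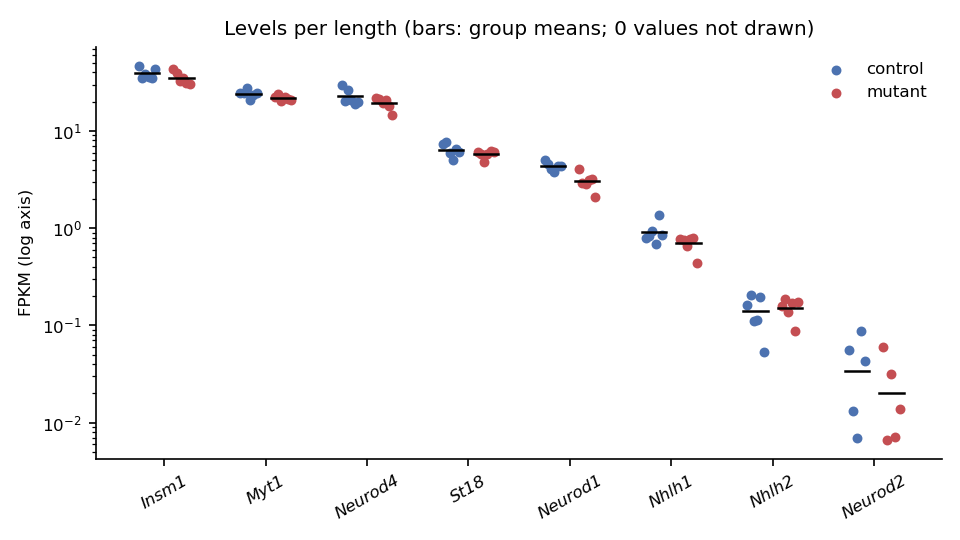
FPKM of the 8 genes in each library on a log axis (points, 6 per group; bars are group means; libraries at 0 are not drawn). Insm1 stands first at 39.2 FPKM in controls and Neurod2 last at 0.0343 FPKM, and the order is the same in the libraries labelled mutant.

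Single libraries stood at the edge of their group for several of the genes. Mutant 5 was the lowest of its group for Neurod1, Neurod4, Nhlh1 and Insm1. Control 3 was lowest among controls for Neurod1, Neurod2, Nhlh1, Myt1 and St18. Mutant 0 was highest of its group for Neurod1, Neurod2 and Myt1, and mutant 1 for Neurod4, Nhlh2 and Insm1. Mutant 2 was lowest of its group for Neurod2, Myt1 and St18. The summed level of the 5 epithelial markers was highest in mutant 0, at 148.4 CPM, and lowest of that group in mutant 5, at 65.5 CPM. It was 116.2 CPM in mutant 1 and 90.4 CPM in mutant 2. The part of epithelial cells in the values of the 8 genes was not tested. Without mutant 5, Neurod1 was still called, with a log2 fold change of -0.45 (edgeR adjusted p = 0.00214).

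The mean of Neurod1 was also lower when set against other genes of the same library. Fragments of Neurod1 made up 14.4% ± 2.26 of those of Neurod4 in controls and 11.5% ± 1.63 in the libraries labelled mutant. The corresponding shares were 9.32% ± 0.971 and 7.11% ± 1.12 for Insm1, 7.75% ± 0.733 and 5.95% ± 0.852 for Myt1, and 27.7% ± 2.77 and 21.4% ± 3.80 for St18. In each of these 4 ratios the groups overlapped, with 4 or 5 of the libraries labelled mutant below every control. Against Pomc, a known target gene, the share was 0.152% ± 0.0157 in controls and 0.0919% ± 0.0132 in the libraries labelled mutant. These groups did not overlap, at 0.129% to 0.168% and 0.0684% to 0.104%. Against Tbx19, a corticotrope and melanotrope factor, the shares were 6.39% ± 1.34 and 4.22% ± 1.04, with overlap. The ratios use the same Neurod1 values as above and are given without a test.

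**Figure D4:**
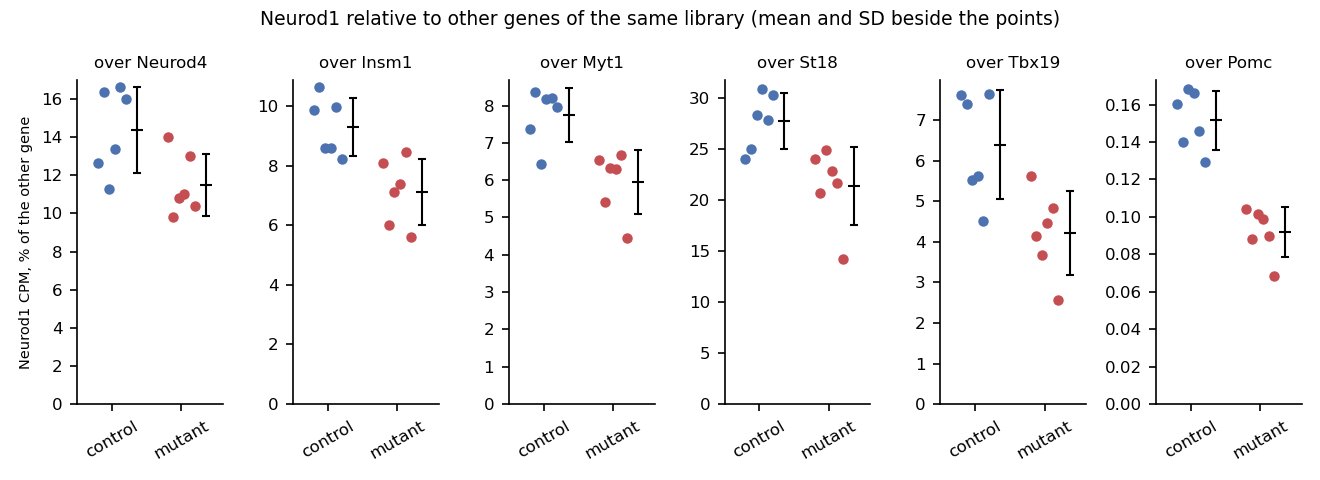
Neurod1 as a percentage of 6 other genes in each library (points, 6 per group; mean and SD beside them; axes start at 0). The groups are apart for Pomc, at 0.129% to 0.168% against 0.0684% to 0.104%, and overlap for the other 5 genes.

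No corticotrope gene was called beside Neurod1. Of 5 tested, 0 passed in either direction, and their median log2 fold change was 0.09. Pomc averaged 6791 ± 1062 CPM in controls, against 7671 ± 629.9 CPM in the other group, a log2 fold change of 0.18 with an edgeR adjusted p of 0.307. Tbx19 had a log2 fold change of 0.05 (adjusted p = 0.839) and Crhr1, the receptor for corticotropin-releasing hormone, one of -0.02 (adjusted p = 0.921). Of 4 melanotrope genes 1 fell, Pax7, the factor that sets melanotropes apart from corticotropes. Of 4 somatotrope genes 0 were called, with a median of -0.11. All 3 thyrotrope genes and 3 of 5 gonadotrope genes fell. The share over all genes tested was 2.75% lower and 4.3% higher.

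Across the 12 libraries, the 3 genes with the pattern most like Neurod1 were Pax7, Chga and Bai3, with predicted and clone names left out. These names are included in the 14845 genes compared but were not ranked. Gm26755, which crosses Neurod1, was among the names left out. Likeness was the mean absolute difference between centred log2 CPM values, which was 0.0946, 0.106 and 0.108. Pax7 went from 58.7 ± 5.09 to 44.96 ± 4.42 CPM, and its log2 fold change was -0.38. Chga, for the granule protein chromogranin A, had a log2 fold change of -0.45, and Bai3, an adhesion-type receptor gene, had -0.36. A fall in all 3 follows from the choice, since likeness was measured over both groups, and it is given without a test.

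Calls among the genes that act with the bHLH factors were near the shares over all genes tested, 2.75% lower and 4.3% higher. Of 7 dimer partners and inhibitors (Tcf3, Tcf4, Tcf12 and Id1 to Id4), 0 were called in either direction and the median log2 fold change was -0.01. Of 15 other proneural and related bHLH genes 5 were tested and 0 called. Neurog1, Neurog2 and Neurog3, which precede the NEUROD genes in other tissues, were among 9 genes with a mean below 0.1 CPM. Of 17 NOTCH and HES genes 1 rose, against 4.3% of all genes tested. It was Hes1, from 40.2 ± 2.01 to 44.7 ± 2.13 CPM (log2 fold change 0.15, edgeR adjusted p = 0.0495). Hes6, an antagonist of HES1, had a log2 fold change of -0.02.

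Of 12 tested relatives and partners of the zinc finger factors, 0 were called in either direction. Over all genes tested, 2.75% were lower and 4.3% higher, and 0 of 12 is near these shares. The median log2 fold change of the 12 was -0.06. Among them, Rest, the repressor of neuronal genes, had a log2 fold change of 0.10 with an edgeR adjusted p of 0.53. Of 5 tested cofactors known from islets and neuroendocrine cells 1 rose, against 4.3% of all genes tested. It was Isl2, which went from 6.65 ± 0.671 to 9.76 ± 0.754 CPM, by 0.55 on the log2 scale (edgeR adjusted p = 0.000513). Mnx1, a homeodomain factor gene of motor neurons and islets, was not called at 2.21 ± 0.473 and 1.42 ± 0.369 CPM, with a log2 fold change of -0.64 (edgeR adjusted p = 0.0553). Pax6 and Prox1 had log2 fold changes of -0.15 and 0.03 and were not called either.

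Among 18 genes of secretory vesicles and peptide processing, 5 fell and 0 rose, with a median log2 fold change of -0.09. Over all genes tested, 2.75% fell and 4.3% rose. Log2 fold changes were -0.75 for Chgb, -0.45 for Chga and -0.39 for Scg2, which encode granule proteins. Syt7, a calcium sensor of exocytosis, had -0.19 and Syp, the vesicle protein synaptophysin, had -0.15, and the adjusted p-values of the 5 lay between 5.37e-05 and 0.0292 in edgeR. Peptide processing genes were not among them: Pcsk1 had a log2 fold change of 0.15 and Pcsk2 of -0.02.

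**Figure D5:**
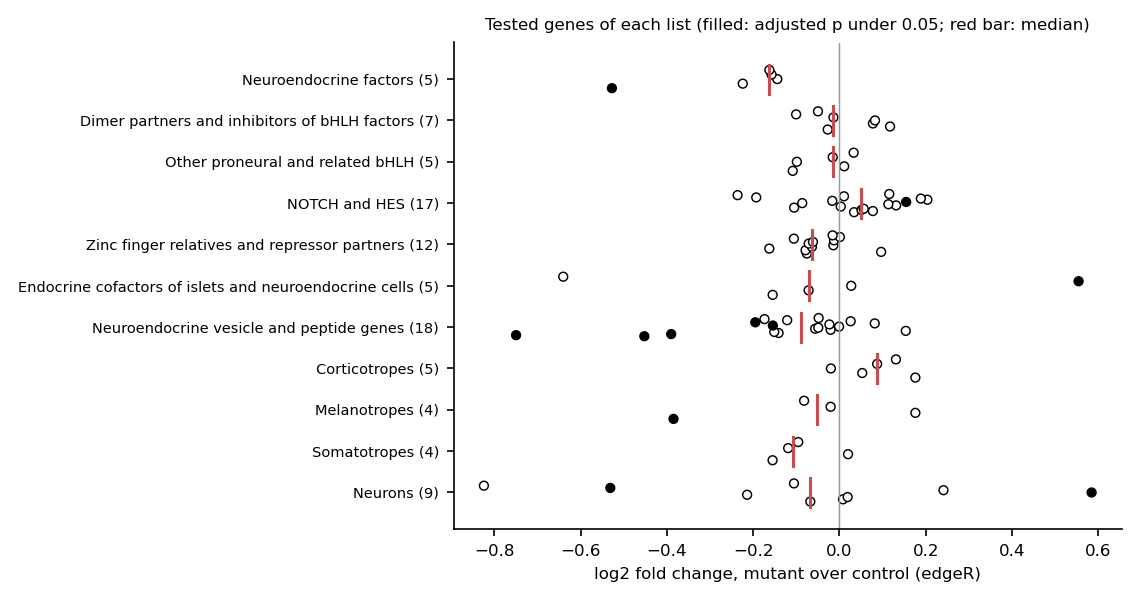
Log2 fold changes (libraries labelled mutant over control) of the tested genes of each list, with their number in brackets; filled points have an edgeR adjusted p under 0.05 and red bars are medians. Neurod1 is the filled point of the top line at -0.53, and the vesicle genes hold 5 filled points, all below 0.

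Markers of neurons, cells in which several of these factors are also known, gave 1 called gene in each direction among 9 tested. Stmn2 rose by 0.58 and Nefm fell by 0.53 on the log2 scale. Of all genes tested, 4.3% rose and 2.75% fell. The summed neuronal list spanned 113.7 to 144.1 CPM in controls, against 111.9 to 136.6 CPM in libraries labelled mutant. No gene was called among 4 tested genes of the posterior lobe and hypothalamus, 7 of the olfactory lineage, 2 of sympathetic and chromaffin cells and 3 of oligodendrocytes. No gene on the lists of sensory ganglia and of endocrine cells of pancreas and gut reached the level filter. Oxt, the oxytocin gene of posterior lobe axons and the hypothalamus, was 1 of 2 genes of its list below 0.1 CPM on average. The 4 tested genes of that list averaged above 0.1 CPM in both groups, and each had a log2 fold change below 0. Nkx2-1 averaged 20.2 CPM in controls and 18.6 CPM in libraries labelled mutant, and Rax 6.92 and 6.03 CPM. Avp averaged 1.64 and 1.48 CPM, and Agrp 0.734 and 0.678 CPM. The part of these cells in the levels of the 8 genes was not tested.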

How the data were processed

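Groups follow the genotype that the labels give, with 6 libraries each. Nothing in the labels links libraries of different groups. What p-values reflect is variation among these samples.

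Per the labels' protocols, libraries were made from total RNA with the unstranded TruSeq RNA kit v2. The submitters' processing notes name Cuffdiff 2.1.1, Cufflinks, Bowtie2 2.1.0, TopHat2 2.0.9, FastQC 0.10.1 and the build mm10. Per the file headers, the deposited per-library table gives an estimated count of fragments and FPKM for each gene. Between 89.99% and 90.41% of non-zero counts were whole within 1e-09, and the rest were rounded. Scaled fragments, in 12 more columns, were left aside. The authors' deposited comparison tables give FPKM per group, a log2 fold change, p-values and q-values, for genes and for transcript variants, and the fold as a ratio.

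A gene entered the test where its FPKM reached 1 in 6 of the 12 libraries. The quasi-likelihood test of edgeR 4.0.16 under R 4.3.3 was used, with TMM factors and without covariates. Called means a Benjamini-Hochberg adjusted p under 0.05 over all 15246 genes. The fits were checked on simulated counts. Alternatives were DESeq2 1.42.0, limma 3.58.1 on log2(FPKM + 1) and log2(FPKM + 0.1), other filters and scalings, a Y-linked covariate, the replicate number as a block, leaving out each library in turn, both libraries numbered 0, or the 3 libraries with high Xist. The libraries with high Xist were control 4, mutant 0 and mutant 3. Single values were compared by exact two-sided permutation tests of CPM.

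The 8 genes and all gene lists were chosen with earlier results of these data known. All 8 were described. Other genes named were the 3 most like each called gene, up to 4 called genes of each list, and defining markers. Likeness used tested genes with a mean of at least 1 CPM and centred log2(CPM + 0.5). Predicted and clone names were left out of it. Syp, Hes6, Pcsk1, Pcsk2, Rest, Nkx2-1, Rax, Avp, Agrp and the uncalled cofactors were named after their values were seen. Some genes of the lists, and 1 name in the genotypes, are not reported here. Promoter windows are RefSeq sequences, and gene coordinates are from GENCODE on GRCm38. Figures were drawn with matplotlib 3.10.9.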

Additional observations from a re-analysis of the deposited data

Results flagged for a closer look

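For 16 groups (8 genes in 2 groups of 6 libraries), the gap of the highest or lowest library to its nearest neighbour was set against the range of the group, with Dixon's limit. The limit was passed by 2 groups, and chance passes it in about 5% of groups.

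Nhlh1 in mutant 5 was at 1.052 CPM, while the other libraries of its group lay between 1.58 and 1.873 CPM (gap over range 0.643). Mutant 5 held 50 fragments of Nhlh1. St18 in mutant 2 was at 27.7 CPM, and the others of its group lay between 33.03 and 35.65 CPM (gap over range 0.67).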

How the results depend on the processing

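Neurod1 was called lower under each of 25 alternatives, with a log2 fold change of -0.61 to -0.42 and adjusted p-values of 3.58e-05 to 0.0349. Leaving out single libraries gave -0.58 to -0.45. The number of the 8 genes called lower was 1 and called higher 0 under every alternative. Neurod4 (-0.29 to -0.16), Insm1 (-0.19 to -0.098), Myt1 (-0.20 to -0.11) and St18 (-0.22 to -0.11) remained uncalled. Over all genes, 419 were lower in the main test, 807 with DESeq2, 216 and 203 with limma on log2(FPKM + 1) and log2(FPKM + 0.1), 144 without the 3 libraries with high Xist, and 197 to 443 without single libraries (lowest without control 1, and 211 to 273 without control 3, control 4 or any of mutants 1 to 4), with 656 higher in the main test, 379 without high Xist and 485 to 694 without single libraries; the cause was not tested. Scaling by library totals gave 734 higher and 282 lower, and by upper quartiles 747 and 294. The Nhlh1 difference, -0.50 CPM with all libraries (exact p = 0.0563), was -0.58 (p = 0.0303) without control 0, -0.61 (p = 0.0130) without control 3, -0.28 (p = 0.126) without control 4 and -0.39 (p = 0.147) without mutant 5. That of Nhlh2 turned from higher to lower without control 5 (-0.01885 to 0.07851 CPM over single omitted libraries). Correlations between libraries of the same number in the 2 groups were -0.0893 to 0.403, and above 0.1 in 2 of 6 pairs. Of these libraries, 2 correlated best with their own number. Whether the replicate numbers pair the samples cannot be settled from 6 pairs. With the replicate block, Neurod1 had -0.54 (adjusted p = 0.0181), and 672 genes were higher and 401 lower. Depth limits Neurod2 and Nhlh2.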
